A study of Mus musculus with 7 samples.

Results

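The 34 genes described here encode the parts of B cells and of the antibodies they make. They were picked by gene name from a deposited table of 32544 genes and sorted by role: 13 B cell receptor parts and co-receptors, 6 immunoglobulin constant chains, 3 antibody assembly proteins, 5 transcription factors and co-activators, and 7 signalling kinases and adaptors. All 34 are in the table, and all passed the filter on low values that 12636 genes passed. The labels give the whole abdominal aorta as the source of all RNA. All animals were male Apoe-/- mice, in which loss of apolipoprotein E leads to atherosclerosis, and all ate a high-fat diet for 12 weeks. The ITA-LNP group (3 libraries) received lipid nanoparticles labelled ITA, read from the series title as itaconate, at 50 mg/kg into the vein once a week. The control-LNP group (4 libraries) received Ctrl-LNP at the same dose and interval, and what that particle holds is not stated in the labels. Age is not given. Whether 1 mouse gave 1 library is not stated either, so the p-values speak only of how these libraries vary, which may include technical variation.

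B cells recognise antigen through a surface immunoglobulin that is held and made to signal by the chains CD79A and CD79B. Mature naive B cells carry IgM and IgD on their surface, class switching replaces these with IgG, IgA or IgE, and plasma cells secrete antibody, with the J chain joining the units of IgM and IgA. In mice with atherosclerosis B cells are few inside the plaque itself. They are known to gather in the adventitia, in lymphoid aggregates beside the aorta and in the fat around it, and they circulate in blood.

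Before any comparison of these genes, the 2 groups of libraries differed in the other cells whose transcripts they held. Levels are CPM (reads of a gene among 1000000 counted reads) from 3′ mRNA sequencing, so they do not scale with gene length. The 7 smooth muscle markers, which define the aortic wall, summed to 16190 to 19947 CPM in the ITA-LNP libraries, against 111 to 208 CPM in the libraries labelled control-LNP, and all 7 were higher with ITA-LNP. The 6 fibroblast and matrix markers summed to 18917 to 21987 CPM with ITA-LNP, against 103 to 238 CPM with control-LNP (6 of 6 higher). The adipocyte list summed to 5759 to 7188 CPM with ITA-LNP, against 49.9 to 329 CPM with control-LNP (2 of 4 tested higher). Most of the ITA-LNP sum was a single gene, Fabp4, at 5589, 7040 and 6184 CPM. Adipoq, Lep and Cidec had 0 reads in all control-LNP libraries, but Lep had 0 reads in all ITA-LNP libraries too. With ITA-LNP, Adipoq was at 8.16, 0 and 15.7 CPM and Cidec at 18.8, 19.2 and 0 CPM. Plin1 averaged 0.356 CPM with ITA-LNP and 0.843 CPM with control-LNP. The labelled tissue thus showed its defining wall markers strongly in the ITA-LNP group and at low levels in the control-LNP group. The values of the libraries labelled control-LNP thus go against their tissue label, and each fold change below compares libraries that differ in tissue content as well as in treatment. Markers of blood cells ran the other way. The 8 platelet markers summed to 135 to 202 CPM with ITA-LNP, against 10102 to 14358 CPM with control-LNP (8 of 8 lower), and the erythroid list to 2556 to 4242 CPM, against 12409 to 44773 CPM (5 of 6 lower). The part of these differences in the results on B cell genes was not tested, and in whole tissue fewer B cells and less RNA per B cell cannot be told apart.

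Among leukocyte lists, the 12 T cell markers summed to 27.0 to 83.6 CPM with ITA-LNP, against 280 to 1049 CPM with control-LNP (5 lower, with Cd5 and Cd6 at 0 reads in all ITA-LNP libraries). The natural killer cell list summed to 1.24 to 18.04 CPM with ITA-LNP, against 452 to 691 CPM with control-LNP (2 of 6 lower). The neutrophil list summed to 46.0 to 86.5 CPM with ITA-LNP, against 932 to 26795 CPM with control-LNP (5 of 6 tested lower). The monocyte and macrophage list had sums of like size in both groups, 1513 to 2351 CPM with ITA-LNP and 1520 to 2049 CPM with control-LNP (4 of 12 higher, 3 lower). Lyz2 alone was at 1015 to 1953 CPM with ITA-LNP and 962 to 1528 CPM with control-LNP. Below it the list was split, with C1qa, C1qb, C1qc and Mrc1 higher and Csf1r, Ly6c2 and Ccr2 lower. Depths were 6375381 to 7281721 reads in the ITA-LNP and 5077073 to 6688872 reads in the control-LNP libraries, so a gene at 0 reads may lie at up to 0.412 to 0.591 CPM, a limit that covers counting error only. Control-LNP replicate 2 stood apart from its group: only 10846 genes had reads there, while replicates 1, 3 and 4 had reads for 14232 to 15333 genes, and its neutrophil list was the highest of the 7 libraries. Results that rest on it are given with and without it.

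**Figure D1:**
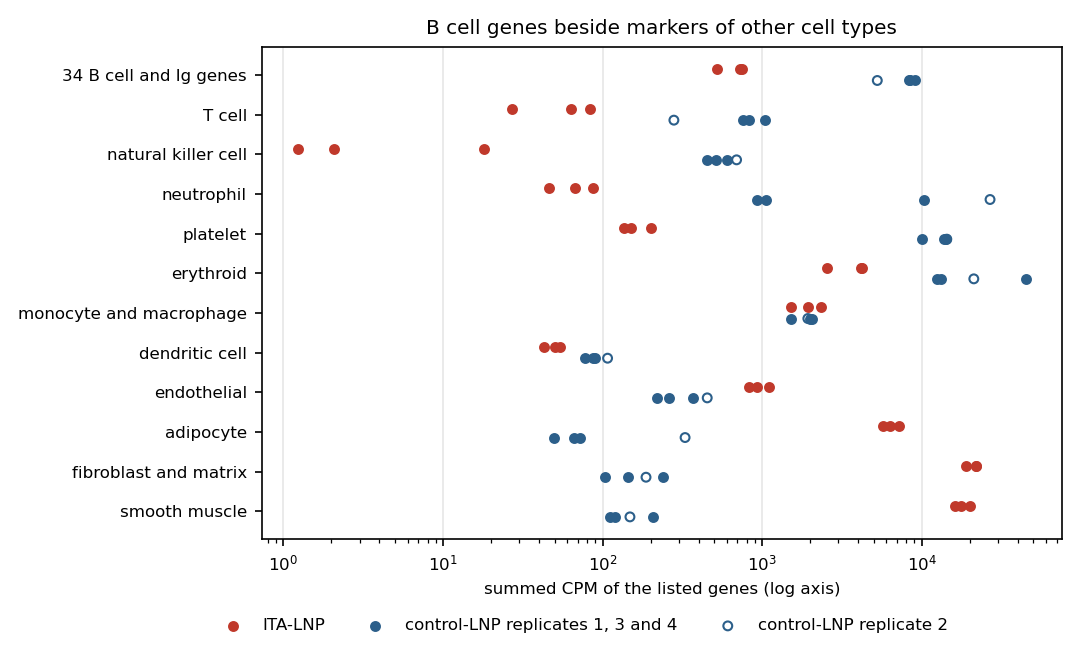
Summed CPM (log axis) of the 34 B cell and immunoglobulin genes and of marker lists of other cell types, 1 point per library. The 34 genes lie at 521 to 745 CPM with ITA-LNP and at 5267 to 9137 CPM with control-LNP, and the smooth muscle, fibroblast and adipocyte lists are higher with ITA-LNP.

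Together the 34 genes made up 745, 728 and 521 CPM in the ITA-LNP libraries, against 8355, 5267, 9137 and 8497 CPM in the control-LNP libraries. Every ITA-LNP library lay far below every control-LNP library. A single gene, the transcription factor Ebf1, supplied 45.4%, 23.1% and 64.7% of the sum with ITA-LNP, against 6.27%, 3.01%, 4.03% and 5.35% with control-LNP. Without Ebf1 the sums were 407, 559 and 184 CPM with ITA-LNP, against 7831, 5108, 8769 and 8043 CPM with control-LNP.

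Of the 34 genes, 24 were lower with ITA-LNP and 10 did not pass the test (limma, adjusted p under 0.05 over all genes). Over all 12636 genes tested, 5.15% were lower and 10.3% higher. No member was higher: 0 passed in limma, 0 at an unadjusted p under 0.05 and 0 with limma-voom on the recovered reads, which called 21 lower. The median log2 fold change of the 34 genes was -4.90, against 0.15 for all genes tested. By role, 10 of 13 receptor parts and co-receptors, 4 of 6 constant chains, 1 of 3 assembly proteins, 4 of 5 transcription factors and co-activators, and 5 of 7 kinases and adaptors were lower. Without control-LNP replicate 2 these counts were 13, 6, 2, 4 and 7, or 32 of 34 in all (background 16%), and the medians were -5.31 for the 34 genes and -0.31 for all genes. Jchain and Ebf1 passed in neither fit. Centring each library on its median moved the median of all genes to -0.98 and turned the split over all genes to 1249 lower and 741 higher calls, against 651 lower and 1306 higher without it, and 31 of the 34 genes were then lower.

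The ITA-LNP and control-LNP values did not overlap for 25 of the 34 genes (10.7% of all genes tested did not overlap and were lower). Against control-LNP replicates 1, 3 and 4 alone, all 3 ITA-LNP libraries were lower for 33 of the 34 genes, all but Jchain (24.2% of all genes). At least 1 ITA-LNP library held 0 reads for 8 of the genes, and 6 of them, Mzb1, Vpreb3, Spib, Pou2af1, Blk and Btk, had at most 3 reads in each ITA-LNP library. None of the 34 genes was at 0 reads in a control-LNP library. The shares of all genes tested with such read counts were not determined. The filter used the mean over all libraries, so genes with so few ITA-LNP reads passed it through the control-LNP libraries. These read counts are therefore partly set by the filter.

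**Figure D2:**
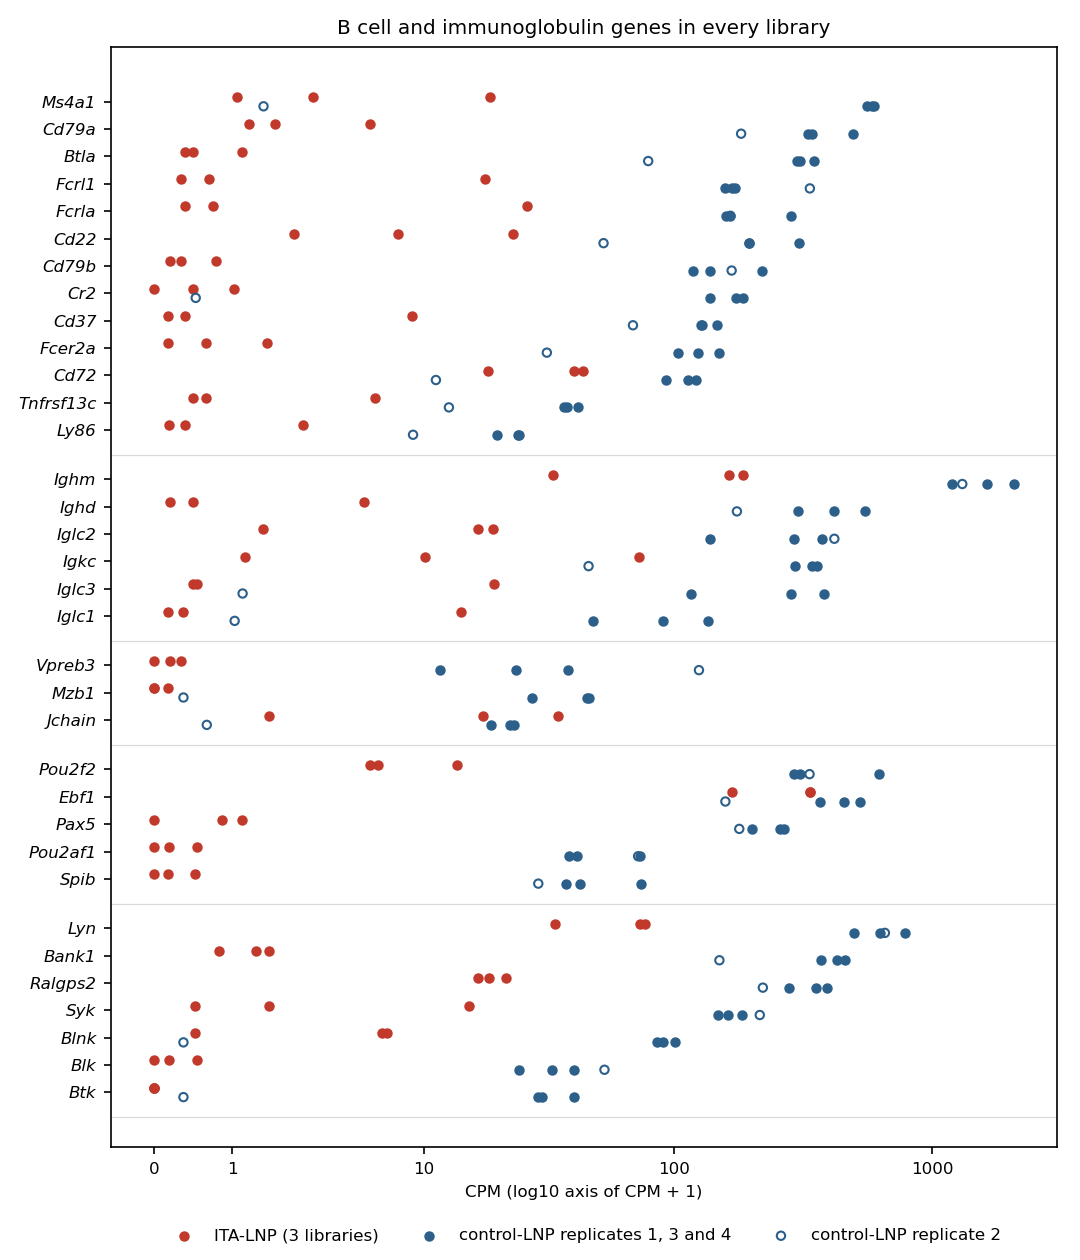
CPM of the 34 genes in each library, on a log10 axis of CPM + 1, grouped by role (receptor parts and co-receptors, constant chains, assembly proteins, transcription factors and co-activators, kinases and adaptors) and ordered by mean CPM. ITA-LNP points lie left of the filled control-LNP points for every gene but Jchain, while the open points of control-LNP replicate 2 fall among or next to the ITA-LNP points for such genes as Ms4a1, Cr2 and Btk.

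The signalling pair of the B cell receptor was nearly absent from the ITA-LNP libraries. Cd79a (mm10 chromosome 7, 24897381 to 24902197), which carries the receptor's signal into the cell, was at 5.80, 1.33 and 1.92 CPM with ITA-LNP, against 493, 182, 344 and 332 CPM with control-LNP. No ITA-LNP library came near a control-LNP library, and the log2 fold change was -6.48 ± 0.63 (SE; limma adjusted p = 0.000224). Its partner Cd79b (chromosome 11, 106311341 to 106314762) was at 0.157, 0.737 and 0.275 CPM with ITA-LNP, which is 1, 5 and 2 reads, against 119, 168, 219 and 138 CPM with control-LNP. Here control-LNP replicate 2 lay within its group, and the log2 fold change was -6.85 ± 0.68 (limma adjusted p = 0.000246).

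Ms4a1 (chromosome 19, 11249675 to 11266241) encodes CD20, the surface protein of mature B cells against which therapeutic antibodies are made. It was at 18.8, 3.09 and 1.10 CPM with ITA-LNP, against 562, 1.64, 584 and 595 CPM with control-LNP. Control-LNP replicate 2 sat among the ITA-LNP libraries while the other 3 control-LNP libraries were nearly equal, so the gene did not pass with all libraries (-4.77 ± 1.85, limma adjusted p = 0.122) and passed without that library (-6.71, adjusted p = 0.000483). Cr2, the complement receptor CD21 that lowers the threshold for antigen, had the same shape, with 0, 1.03 and 0.412 CPM with ITA-LNP, against 174, 0.449, 139 and 185 CPM with control-LNP. Its log2 fold change was -5.16 ± 1.66 (limma adjusted p = 0.0686) with all libraries and -6.87 (adjusted p = 0.000101) without control-LNP replicate 2. In the same library Cd79a stood at 46.8% and Cd79b at 106% of the mean of the other control-LNP libraries, against 0.283% for Ms4a1 and 0.27% for Cr2.

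Cd72, an inhibitory co-receptor, kept the highest level of the co-receptors in the ITA-LNP libraries. It was at 18.4, 44.1 and 40.8 CPM with ITA-LNP, against 93.6, 11.2, 122 and 113 CPM with control-LNP, and control-LNP replicate 2 was below all 3 ITA-LNP libraries. With all libraries Cd72 did not pass (-0.94 ± 0.88, limma adjusted p = 0.548), and without that library the log2 fold change was -1.73 (adjusted p = 0.0121). Exons of Cd72 overlap Tesk1 on the opposite strand, and whether the counting used strand is not given in the sources used here, so reads of the 2 genes may not be told apart. The same holds for Cd37 with Tead2, Pax5 with 5730488B01Rik and Gm12462, Cd22 with Gm29439, Lyn with Gm26857 and Iglc3 with 2010309G21Rik. Mzb1 with SPATA24, Iglc2 with Iglj2 and Pou2f2 with Mir6537 share exons on the same strand, where counting by strand would not separate them.

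The other 8 co-receptors and receptors were all lower. The inhibitory receptor Btla, which T cells also carry, had the steepest fall among them, with 0.635 ± 0.474 CPM with ITA-LNP and 260 ± 122 CPM with control-LNP (SD, n = 3 and 4; log2 fold change -7.15). The Fc receptor-like proteins Fcrl1 and Fcrla were lower by log2 fold changes of -5.87 and -5.58. Nearly all of what was left of both genes lay in ITA-LNP replicate 2, with 17.8 and 26.5 CPM, against less than 1 CPM in the other 2 ITA-LNP libraries. Fcer2a, the low-affinity IgE receptor CD23 of mature B cells, averaged 0.817 ± 0.818 CPM with ITA-LNP and 102 ± 50.8 CPM with control-LNP (log2 fold change -5.72). The tetraspanin Cd37 was lower by a log2 fold change of -5.55, with 8.84 CPM in ITA-LNP replicate 2. The inhibitory lectin Cd22 averaged 11.1 ± 10.7 CPM with ITA-LNP and 188 ± 104 CPM with control-LNP (log2 fold change -4.15). The receptor for the survival factor BAFF, Tnfrsf13c, and Ly86, a secreted partner of the receptor CD180, were lower by log2 fold changes of -3.60 and -3.43. The Tnfrsf13c call was lost without ITA-LNP replicate 2 or 3, the Ly86 call without ITA-LNP replicate 1 or 2, and both calls without any of control-LNP replicates 1, 3 and 4, with adjusted p of up to 0.121 for Tnfrsf13c and 0.123 for Ly86 over the alternatives (limma).

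**Figure D3:**
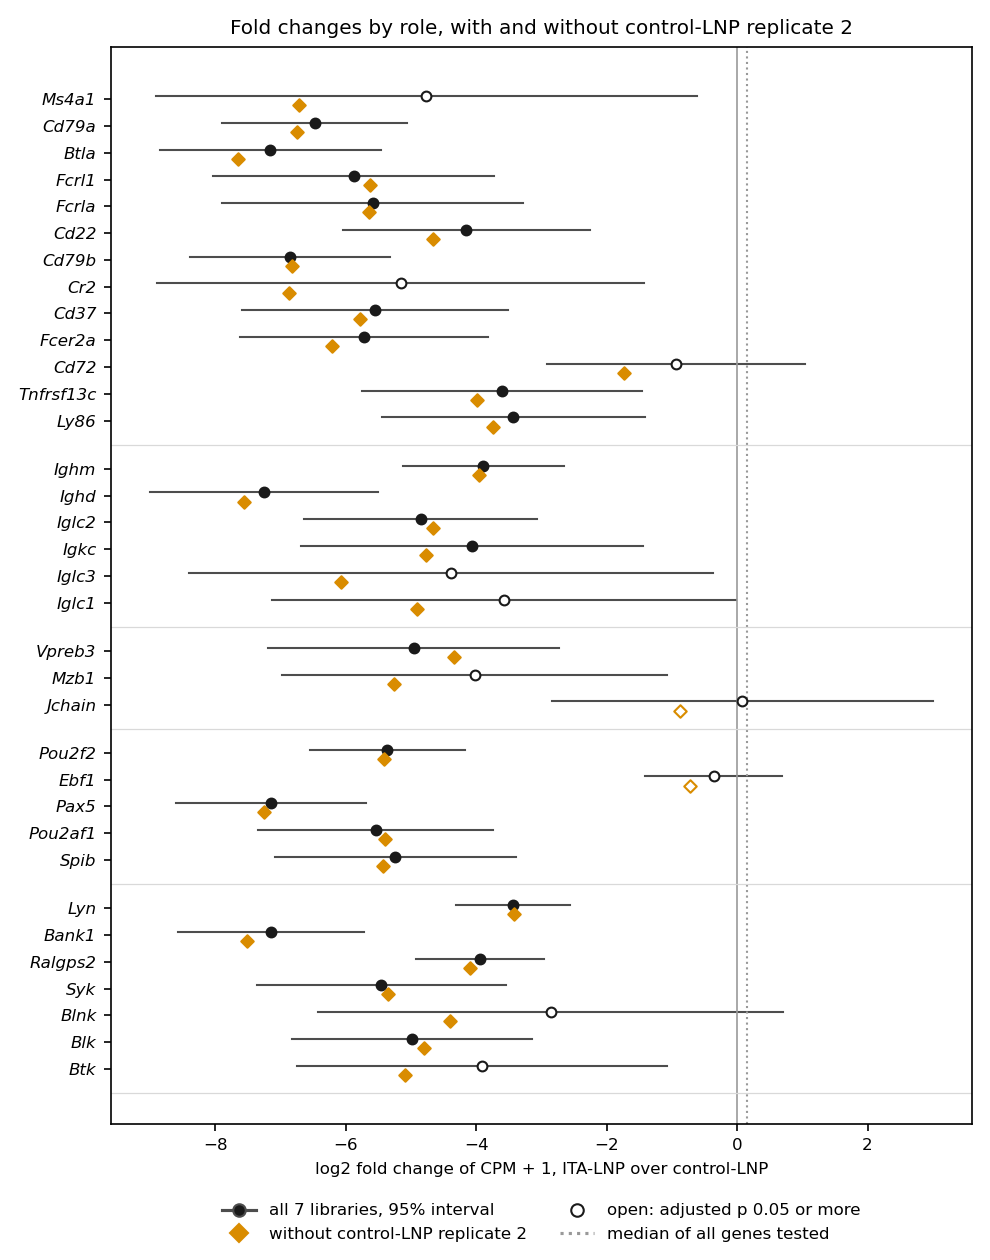
Log2 fold change of CPM + 1 (ITA-LNP over control-LNP) of the 34 genes by role, with 95% intervals from limma for all 7 libraries (circles) and the estimate without control-LNP replicate 2 (diamonds); open symbols did not pass at an adjusted p of 0.05. The circles run from -7.25 for Ighd to 0.08 for Jchain, and 8 genes, such as Ms4a1 and Btk, pass only without that library.

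The antibody chains were lower too, but not evenly. Ighm (chromosome 12, 113418558 to 113422730), the IgM heavy chain and the most abundant of the 34 genes, was at 164, 186 and 33.6 CPM with ITA-LNP, against 1196, 1305, 2069 and 1623 CPM with control-LNP. The groups were far apart, with a log2 fold change of -3.89 ± 0.55 (SE; limma adjusted p = 0.00144). Ighd (chromosome 12, 113406604 to 113416324), the IgD heavy chain, which is made from the same primary transcript as IgM by alternative splicing and marks mature naive B cells, was at 0.157, 5.45 and 0.412 CPM with ITA-LNP, against 303, 176, 550 and 419 CPM with control-LNP. Its fitted fall was the largest of the 34 genes, close to those of Btla, Pax5 and Bank1 (-7.25 ± 0.78, limma adjusted p = 0.000352).

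The kappa light chain Igkc (chromosome 6, 70726435 to 70726966) was at 10.04, 72.8 and 1.24 CPM with ITA-LNP, against 295, 46.3, 358 and 344 CPM with control-LNP. The groups overlapped, because ITA-LNP replicate 2 held more than control-LNP replicate 2. The log2 fold change of -4.06 ± 1.17 passed narrowly (limma adjusted p = 0.0432), and the call ended without ITA-LNP replicate 1, without ITA-LNP replicate 3, and without any of control-LNP replicates 1, 3 and 4, with adjusted p of up to 0.222 over the alternatives.

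The 3 lambda constant chains varied widely between libraries of the same group. Iglc2 was at 19.3, 1.62 and 16.8 CPM with ITA-LNP, against 138, 418, 373 and 293 CPM with control-LNP, and was lower (-4.85 ± 0.79, limma adjusted p = 0.00284). Iglc3 was at 0.471, 19.5 and 0.412 CPM with ITA-LNP, against 117, 1.20, 380 and 285 CPM with control-LNP (-4.38 ± 1.79, adjusted p = 0.139). Iglc1 was at 14.3, 0.295 and 0.137 CPM with ITA-LNP, against 48.1, 1.05, 135 and 90.7 CPM with control-LNP (-3.57 ± 1.59, adjusted p = 0.169). Control-LNP replicate 2 was the highest of all libraries for Iglc2 and close to the ITA-LNP level for Iglc3 and Iglc1. Without it Iglc3 and Iglc1 passed, at -6.07 (adjusted p = 0.00361) and -4.91 (adjusted p = 0.00902).

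Reads of Iglc2 and Iglc3 may not be told apart reliably, because their annotated transcripts match at 95.4% of aligned bases, while Iglc1 matches Iglc2 at 73.6% and Iglc3 at 76.3%. The last 120 coding bases of the 3 chains are shown to let the likeness be seen. They are read from mm10 chromosome 16 with the GENCODE M21 annotation, on the minus strand, at 19198539 to 19198658 (Iglc2), 19065368 to 19065487 (Iglc3) and 19061755 to 19061874 (Iglc1). Capitals mark the bases that differ from Iglc2, 2 in Iglc3 and 38 in Iglc1.
Iglc2: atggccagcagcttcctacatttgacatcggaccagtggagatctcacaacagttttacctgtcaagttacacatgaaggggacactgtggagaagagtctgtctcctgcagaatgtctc
Iglc3: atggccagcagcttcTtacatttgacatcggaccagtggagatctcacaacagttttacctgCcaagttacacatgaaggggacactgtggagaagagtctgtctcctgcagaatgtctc
Iglc1: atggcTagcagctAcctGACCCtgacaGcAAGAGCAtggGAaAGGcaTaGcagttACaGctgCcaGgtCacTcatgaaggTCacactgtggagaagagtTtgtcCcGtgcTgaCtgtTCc
Iglc3 was low in control-LNP replicate 2, where Iglc2 was highest, so the reads of that library were not spread over this pair in the proportion seen in the other control-LNP libraries.

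To compare the kind of antibody chains rather than their amount, 4 ratios were formed within each library. The IgD share of IgM plus IgD CPM was 0.0956%, 2.85% and 1.21% with ITA-LNP, against 20.2%, 11.9%, 21.0% and 20.5% with control-LNP. All ITA-LNP libraries were below all control-LNP libraries, by 17.0 percentage points on average (exact two-sided permutation test, p = 0.0286, adjusted over the 4 compositions p = 0.0571). The ITA-LNP shares rest on 1 of 1046, 37 of 1299 and 3 of 248 reads, with exact 95% binomial intervals that reach up to 0.531%, 3.90% and 3.49%, below the lowest control-LNP interval, which starts at 11.2%. The value of 0.0286 is the smallest p that the 35 splits of 7 libraries allow.

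The share of switched heavy chains, IgA, IgG and IgE among all heavy constant CPM, was 14.5%, 9.92% and 3.88% with ITA-LNP, against 4.20%, 1.30%, 2.03% and 1.37% with control-LNP. ITA-LNP replicate 3 lay just below control-LNP replicate 1, so the groups overlapped, and the difference of 7.22 percentage points did not pass (exact two-sided permutation test, p = 0.0571, adjusted p = 0.0762). In ITA-LNP replicate 1 the 178 switched reads were 97 of Igha, 78 of Ighg2b and 3 of Ighg2c, and in ITA-LNP replicate 2 the 143 were 138 of Ighg2b, 4 of Igha and 1 of Ighg2c. Ighg2b stood at 12.2, 20.3 and 0.412 CPM with ITA-LNP, against 4.73, 0.449, 3.65 and 6.72 CPM with control-LNP (log2 fold change 0.82 ± 1.16, limma adjusted p = 0.705). Igha stood at 15.2, 0.589 and 0.824 CPM with ITA-LNP, against 59.3, 18.7, 47.9 and 21.5 CPM with control-LNP (-3.23 ± 1.05, adjusted p = 0.0705). Ighe had 0 reads in all 7 libraries.

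The lambda share of light chain constant CPM was 77.2%, 22.7% and 93.3% with ITA-LNP, against 50.7%, 90.1%, 71.3% and 66.0% with control-LNP. The ITA-LNP libraries spanned almost the whole scale, and no difference was detected (-5.10 percentage points, exact two-sided permutation test, p = 0.857). Without ITA-LNP replicate 2 the difference was 15.8 percentage points and without control-LNP replicate 2 it was 1.75 percentage points, the opposite sign in both cases. In the control-LNP libraries with many variable-gene reads those reads were mostly kappa, as given below. The constant-chain share may therefore not give the light chain that the cells used.

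**Figure D4:**
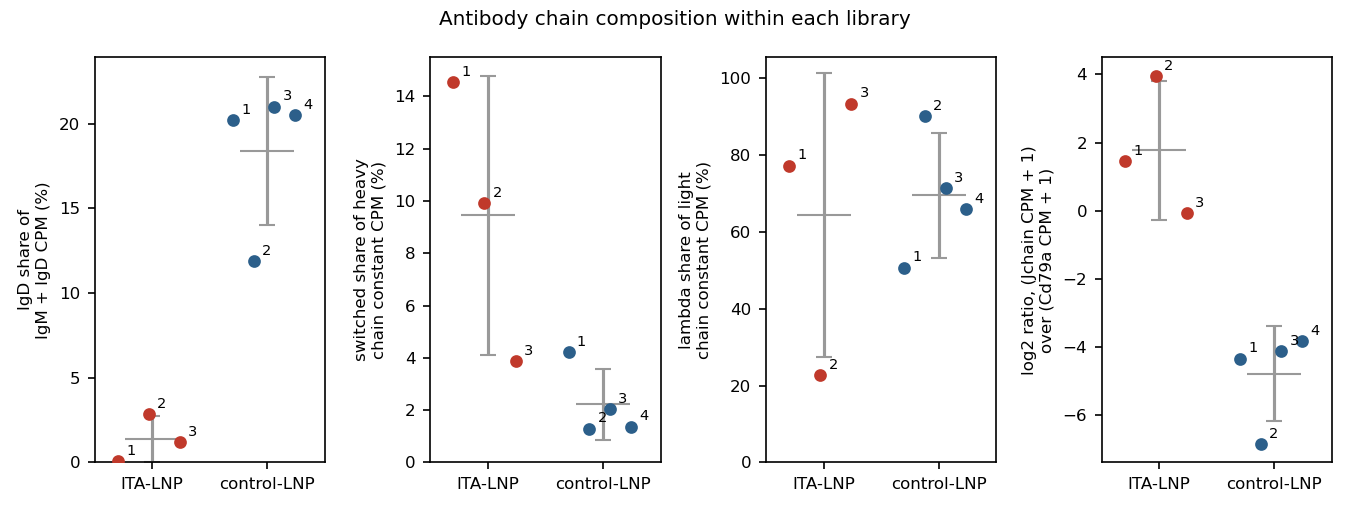
Antibody chain composition within each library, with 1 numbered point per replicate and the mean and SD in grey. The IgD share is below 3% in the 3 ITA-LNP libraries and at least 11.9% in the 4 control-LNP libraries, the switched and lambda shares overlap, and the Jchain to Cd79a ratio is higher in the ITA-LNP libraries.

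Reads were also counted on the immunoglobulin variable genes, although reads at the 3′ end rarely reach the variable part. The counts are per gene and no rearranged junction was read, so they do not give a number of B cell clones. The table lists 346 variable genes. In the ITA-LNP libraries 3, 5 and 6 variable genes had reads, against 65, 3, 73 and 61 in the control-LNP libraries. The reads behind these counts were 28, 46 and 6 with ITA-LNP, against 277, 3, 571 and 579 with control-LNP, so control-LNP replicate 2 had as few as the ITA-LNP libraries.

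In ITA-LNP replicates 1 and 2 a single variable gene held nearly all of these reads. It was Iglv2, a lambda gene, with 26 of 28 reads in replicate 1 (92.9%, exact 95% binomial interval 76.5 to 99.1%), and Igkv5-39, a kappa gene, with 42 of 46 reads in replicate 2 (91.3%, 79.2 to 97.6%). The most abundant variable gene of control-LNP replicates 1, 3 and 4 held 10.5%, 9.28% and 14.2% of the reads, with intervals that reach at most 17.3%. In the constant genes, ITA-LNP replicate 1 had 64 Igkc reads with 123 Iglc2 and 91 Iglc1 reads, and ITA-LNP replicate 2 had 494 Igkc reads with 132 Iglc3 reads. Variable and constant genes did not give the same light chain in every library. In ITA-LNP replicate 3, 5 of 6 variable reads were kappa beside a lambda constant share of 93.3%. Control-LNP replicates 1, 3 and 4 had 189, 359 and 388 kappa variable reads, against 39, 100 and 100 lambda variable reads. Their lambda constant shares were 50.7%, 71.3% and 66.0%, so kappa led in the variable genes and lambda in the constant genes. Which of these gives the light chain of the cells was not tested. The 6 reads of ITA-LNP replicate 3 and the 3 reads of control-LNP replicate 2 are too few to describe a spread. Copies made by PCR cannot be separated from distinct molecules here, so these intervals cover counting error only.

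**Figure D5:**
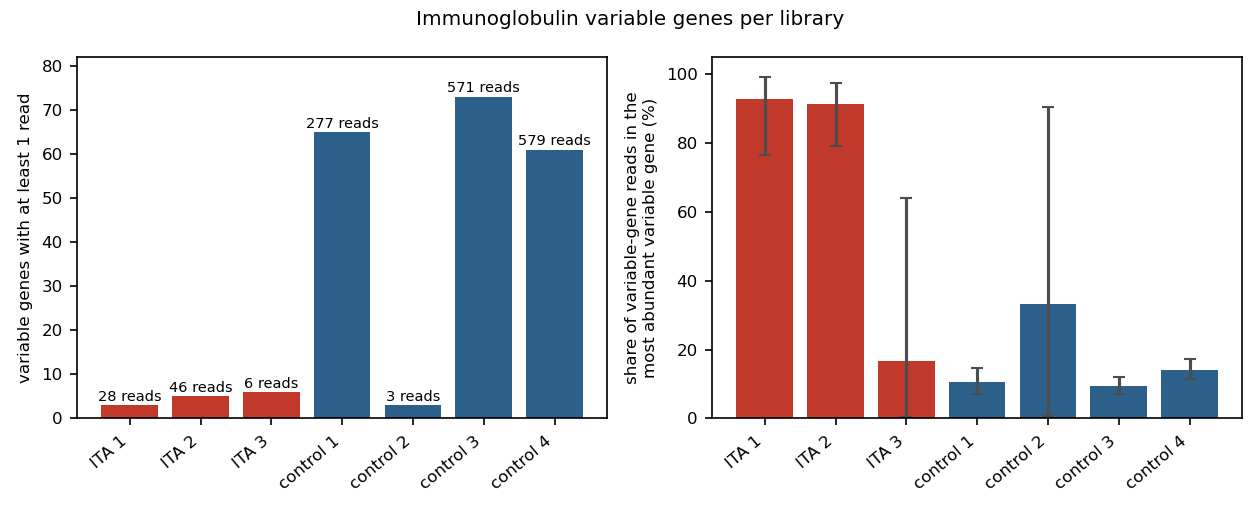
Left, number of immunoglobulin variable genes with at least 1 read in each library, with the reads printed above the bars; right, percent of those reads in the most abundant variable gene, with exact 95% binomial intervals. ITA-LNP replicates 1 and 2 have 92.9% and 91.3% in 1 gene, against 9.28% to 14.2% in control-LNP replicates 1, 3 and 4.

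Of the assembly proteins, Jchain (chromosome 5, 88519809 to 88527891), which links antibody units in plasma cells and plasmablasts, was the single member with a log2 fold change above 0 when all libraries were used. It was at 17.6, 35.2 and 1.79 CPM with ITA-LNP, against 23.4, 0.598, 18.8 and 22.6 CPM with control-LNP. ITA-LNP replicate 2 was the highest of the 7 libraries and control-LNP replicate 2 the lowest. The gene did not pass (0.08 ± 1.30, limma adjusted p = 0.978), and its 95% interval of -2.83 to 3.00 leaves room for changes of several fold either way. Without control-LNP replicate 2, which held 4 Jchain reads, the log2 fold change was -0.87 (adjusted p = 0.514). Set against Cd79a in the same library, the log2 ratio of Jchain to Cd79a was 1.45, 3.96 and -0.07 with ITA-LNP, against -4.34, -6.84, -4.12 and -3.82 with control-LNP. The groups did not overlap, with a difference of 6.56 (exact two-sided permutation test, p = 0.0286, adjusted p = 0.0571). This difference is the Jchain fold change less the Cd79a fold change, so it follows from the fall of Cd79a and is not a separate result.

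Mzb1, a chaperone in the endoplasmic reticulum of marginal zone B cells, B-1 cells and plasma cells, was at 0, 0 and 0.137 CPM with ITA-LNP, a single read in 3 libraries, against 27.6, 0.299, 45.8 and 46.7 CPM with control-LNP. The groups did not overlap, yet with control-LNP replicate 2 at 2 reads the gene did not pass (-4.02 ± 1.32, limma adjusted p = 0.0720), and without it the log2 fold change was -5.26 (adjusted p = 0.000737). Vpreb3, a partner of newly made heavy chains in B cell precursors and some mature B cells, was at 0.157, 0 and 0.275 CPM with ITA-LNP, against 11.6, 125, 38.5 and 23.8 CPM with control-LNP. It was lower (-4.96 ± 0.99, limma adjusted p = 0.00765), and control-LNP replicate 2 was the highest library, at 508% of the mean of the other control-LNP libraries.

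Of the transcription factors, Pax5 (chromosome 4, 44524757 to 44710487), which commits cells to the B lineage and holds them there, was at 0, 1.18 and 0.824 CPM with ITA-LNP, against 258, 179, 202 and 268 CPM with control-LNP. All 4 control-LNP libraries were of like height, and the log2 fold change was -7.15 ± 0.65 (limma adjusted p = 0.000149). Pou2f2, the octamer-binding factor Oct-2, was at 5.80, 6.34 and 13.7 CPM with ITA-LNP, against 620, 336, 308 and 293 CPM with control-LNP (-5.36 ± 0.53, adjusted p = 0.000232). Its co-activator Pou2af1 and the ETS factor Spib fell to means of 0.206 ± 0.241 and 0.193 ± 0.226 CPM with ITA-LNP, against 56.6 ± 19.0 and 46.1 ± 19.8 CPM with control-LNP (SD, n = 3 and 4; log2 fold changes -5.54 and -5.24).

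Ebf1 (chromosome 11, 44617317 to 45008091), which acts before Pax5 in B cell development and is also known from adipocyte precursors and stromal cells, did not follow the other factors. It was at 338, 168 and 337 CPM with ITA-LNP, against 524, 158, 368 and 454 CPM with control-LNP. The lowest library was control-LNP replicate 2, and the other 3 control-LNP libraries were all above the ITA-LNP libraries. The log2 fold change was -0.36 ± 0.47 with all libraries (limma adjusted p = 0.683) and -0.73 without control-LNP replicate 2 (adjusted p = 0.118). The fibroblast list and, mostly through Fabp4, the adipocyte list were high in the same ITA-LNP libraries, as given above. Their part in the Ebf1 level was not tested.

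Promoters are shown for 4 of the 5 members that hold a motif of these factors, since the factors and the genes were measured in the same libraries. The octamer ATGCAAAT, read by Pou2f2 with Pou2af1, and the EBF core CCCNNGGG were searched on both strands from 250 bases before to 50 bases after each start in RefSeq promoters of GRCm38.p6. Of the 34 genes, 23 matched an entry. The octamer was found in 2 of these 23 genes, Vpreb3 and Blnk, against 1.74% of 32851 promoters in the whole table. The EBF core was found in 3 of the 23, Bank1, Cd22 and Spib, where a pair of matches overlap, against 13.7%. For the EBF core the members thus show no larger a share than all promoters. Members are counted here as genes, and the 23 have 28 promoters, while the background is counted per promoter, so the units differ. For the octamer, 2 genes are too few for a comparison of shares. The capitals mark the motif, which begins at -45 from the start in Vpreb3 and -130 in Blnk (octamer, in its reverse complement form) and at -21 in Bank1 and -48 in Cd22 (EBF core). The windows are chr10:75948050-75948349 on the plus strand for Vpreb3, and on the minus strand chr19:40994172-40994471 for Blnk, chr3:136326017-136326316 for Bank1 and chr7:30878979-30879278 for Cd22.
Vpreb3: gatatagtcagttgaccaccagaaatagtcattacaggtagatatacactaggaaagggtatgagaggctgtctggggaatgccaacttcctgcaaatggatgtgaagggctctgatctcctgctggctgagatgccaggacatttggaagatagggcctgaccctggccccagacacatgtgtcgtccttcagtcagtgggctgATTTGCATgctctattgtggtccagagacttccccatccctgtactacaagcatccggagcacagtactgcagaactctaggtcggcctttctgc
Blnk: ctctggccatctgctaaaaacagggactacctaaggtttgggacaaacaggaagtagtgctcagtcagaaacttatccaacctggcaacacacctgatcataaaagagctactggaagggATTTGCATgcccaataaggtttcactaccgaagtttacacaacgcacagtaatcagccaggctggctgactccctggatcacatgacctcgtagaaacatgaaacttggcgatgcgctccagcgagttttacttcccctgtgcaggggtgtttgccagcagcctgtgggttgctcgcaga
Bank1: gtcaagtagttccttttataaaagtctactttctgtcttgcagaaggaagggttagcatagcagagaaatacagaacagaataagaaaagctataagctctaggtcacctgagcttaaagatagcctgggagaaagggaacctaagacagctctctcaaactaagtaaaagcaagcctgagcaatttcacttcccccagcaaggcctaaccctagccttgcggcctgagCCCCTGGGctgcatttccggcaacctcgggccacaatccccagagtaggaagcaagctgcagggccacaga
Cd22: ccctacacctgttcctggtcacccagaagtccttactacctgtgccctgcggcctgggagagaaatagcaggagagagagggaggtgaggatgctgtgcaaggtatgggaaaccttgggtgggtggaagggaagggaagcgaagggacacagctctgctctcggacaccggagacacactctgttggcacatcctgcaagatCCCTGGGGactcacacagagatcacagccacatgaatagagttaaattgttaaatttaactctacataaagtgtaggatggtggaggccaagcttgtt
A match describes these letters and no binding was measured. Vpreb3, Bank1 and Cd22 were lower with ITA-LNP, while Blnk, with the same octamer as Vpreb3, was close to 0 in control-LNP replicate 2, where Vpreb3 was highest.

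Among the kinases and adaptors, Lyn (chromosome 4, 3678115 to 3813122), the Src-family kinase that phosphorylates the CD79 chains and is also used by myeloid cells and platelets, kept the most reads with ITA-LNP. It was at 73.6, 76.9 and 34.1 CPM with ITA-LNP, against 782, 656, 501 and 626 CPM with control-LNP (-3.43 ± 0.39, limma adjusted p = 0.000484). Bank1, a scaffold of B cells that joins Lyn to calcium release, was at 0.784, 1.47 and 1.79 CPM with ITA-LNP, against 460, 150, 371 and 430 CPM with control-LNP (-7.14 ± 0.64, adjusted p = 0.000133). Both sets of values were well apart between the groups.

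Syk, the kinase that binds the phosphorylated CD79 chains, was lower by a log2 fold change of -5.45, with 15.4 CPM in ITA-LNP replicate 1 and less than 2 CPM in replicates 2 and 3. Blk, a Src-family kinase largely of B cells, was at most at 3 reads in an ITA-LNP library and lower by a log2 fold change of -4.98. Ralgps2, an exchange factor for Ral GTPases, kept an even level of 19.0 ± 2.55 CPM with ITA-LNP, against 312 ± 77.4 CPM with control-LNP (SD, n = 3 and 4; log2 fold change -3.94, limma adjusted p = 0.000417).

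Btk, the kinase downstream of Syk that is mutated in X-linked agammaglobulinaemia, had 0 reads in all 3 ITA-LNP libraries, against 29.3, 0.299, 30.4 and 40.5 CPM with control-LNP. Set against a floor of 3 reads per library, its mean was at least 56.9-fold lower with ITA-LNP. The adaptor Blnk, which couples Syk to Btk, was at 6.90, 0.442 and 6.59 CPM with ITA-LNP, against 90.8, 0.299, 101 and 85.6 CPM with control-LNP. Control-LNP replicate 2 was the lowest library for Blnk. Neither gene passed with all libraries (limma adjusted p = 0.0689 for Btk and 0.273 for Blnk), and both passed without that library (adjusted p = 0.000741 and 0.00291).

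The falls differed in size between the 34 genes. In a fit of each gene relative to Cd79a in the same library, 14 of the other 33 differed from Cd79a (97.9% of all genes tested did). On the log2(CPM + 1) scale all 14 had a value above that of Cd79a. They were Cd22, Cd72, Tnfrsf13c, Ly86, Ighm, Igkc, Iglc1, Jchain, Mzb1, Ebf1, Blnk, Btk, Lyn and Ralgps2. The distances from Cd79a were 6.56 ± 1.18 for Jchain, 6.12 ± 0.64 for Ebf1, 5.54 ± 0.95 for Cd72, 3.04 ± 0.70 for Lyn and 2.59 ± 0.69 for Ighm on the log2 scale (SE). The Jchain distance is the same quantity as the ratio difference given above. For Mzb1 and Btk this direction is not supported, because they had 1 and 0 reads with ITA-LNP and the pseudocount of 1 CPM limits their fold change. Over the reads of each group pooled, the ratio of control-LNP to ITA-LNP was 589 for Mzb1 (counting interval 105.4 to 23317) and 111 for Cd79a (86.4 to 146), and for Btk it is known only as a bound. The count was 18 with a pseudocount of 4 CPM, 9 with a pseudocount of 0.25 CPM and 6 with limma-voom. Without control-LNP replicate 2 it was 12, with Igkc, Iglc1, Mzb1 and Btk out and Iglc2 and Vpreb3 in. Cd72, Ighm, Jchain, Ebf1, Lyn and Ralgps2 differed with all libraries, with a pseudocount of 0.25 CPM, with limma-voom and without control-LNP replicate 2.

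Control-LNP replicate 2 departed from the other control-LNP libraries in 2 directions among the member genes. It held under 10% of the mean of the other control-LNP libraries for 8 genes, Ms4a1, Cr2, Iglc1, Iglc3, Jchain, Mzb1, Blnk and Btk. It was the highest control-LNP library for 5 genes, Fcrl1, Iglc2, Vpreb3, Blk and Syk. The shares of all genes tested with such values were not determined, so these counts cannot be read as particular to B cell genes. The library differed beyond the member genes, with reads for 10846 genes, against 14232 to 15333 in the other control-LNP libraries. The receptor chains Cd79a and Cd79b, Pax5 and Ighm stayed within the order of size of the other control-LNP libraries. The part of the high neutrophil list and low number of genes with reads of control-LNP replicate 2 in these departures was not tested.

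Genes of the B cell lineage outside the 34 gave the wider picture. Of 10 further identity genes 3 were lower, led by Siglecg, an inhibitory lectin, at 0.193 ± 0.226 CPM with ITA-LNP and 115 ± 50.4 CPM with control-LNP (log2 fold change -6.54). The surface glycoprotein Cd24a was also lower (-2.12). Of 16 further signalling genes 5 were lower and 1 higher. The pan-leukocyte phosphatase Ptprc (-3.36), the kinase subunit Pik3cd (-4.72) and the phosphatase Ptpn6 (-4.33) were lower. Cd81, named after its values were seen because it was the single rise, is a tetraspanin that many cell types carry, and was at 213, 160 and 236 CPM with ITA-LNP, against 88.8, 51.4, 45.4 and 83.8 CPM with control-LNP. Of 12 further transcription factors of the lineage 5 were lower, with Ikzf1 (-4.86), Irf8 (-3.03) and Prdm1 (-4.84) first by p. Of 9 tested genes of the BAFF system and of migration, 2 were lower, among them the chemokine receptor Cxcr4 (-4.23), and the BAFF-binding receptor Tnfrsf13b (-4.25, limma adjusted p = 0.078) did not pass.

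Markers of B cell stages and subsets showed no common direction. Of 5 plasma cell genes tested, Sdc1, a proteoglycan that stromal and epithelial cells also make, was higher (4.90), Prdm1, the factor that drives plasma cell formation, was lower, and Txndc5 (2.44, limma adjusted p = 0.176) did not pass. The defining plasma cell genes Tnfrsf17 and Derl3 had 0 reads in all ITA-LNP libraries and at most 0.394 and 0.985 CPM in a control-LNP library. Of 5 B-1 cell genes tested the sialoprotein Spn was lower (-5.79) and the repressor Bhlhe41 higher (2.68), with Cd5 at 0 reads in all ITA-LNP libraries. Of 6 marginal zone genes S1pr3 was higher (4.44) and Cd9 lower (-1.23), both known in vascular or blood cells as well. Of 4 germinal centre genes tested the first by p was Bcl6, a repressor needed for the germinal centre reaction, and it did not pass (1.39, limma adjusted p = 0.515).

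Of 2 precursor genes tested the cytokine receptor Il7r, which T cells also carry, was lower (-3.62). Rag1, a subunit of the recombinase that assembles receptor genes, was at 32.0, 79.9 and 0 CPM with ITA-LNP, against 0, 0, 0.192 and 0 CPM with control-LNP. Reads were thus high in a pair of ITA-LNP libraries and absent from the third, and the gene did not pass (3.73 ± 1.36, limma adjusted p = 0.103). Rag2, its partner, had 0 reads in all 3 ITA-LNP libraries, as had Vpreb1 and Dntt, against at most 1.35, 1.35 and 1.64 CPM in a control-LNP library. Igll1 and Vpreb2 had 0 reads in all 7 libraries, so these genes do not set the groups apart.

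Of the 3 lymphoid stroma genes tested, Cxcl13, the chemokine that draws B cells into follicles, was higher. It was at 10.8, 11.1 and 11.4 CPM with ITA-LNP, against 0, 0.150, 0.385 and 0 CPM with control-LNP (3.43 ± 0.69, limma adjusted p = 0.00765). The 3 ITA-LNP libraries were almost equal for this gene, while Cxcr5, the receptor for it on B cells, was at 27.3, 22.8 and 20.9 CPM with ITA-LNP, against 49.0, 73.9, 56.7 and 50.7 CPM with control-LNP (-1.24, limma adjusted p = 0.168). Ccl21a, a chemokine of lymphatic and lymph node stroma, was at 80.3, 43.6 and 0 CPM with ITA-LNP, against 0, 0, 0.577 and 0 CPM with control-LNP, and did not pass (3.78, adjusted p = 0.109). The remaining tested gene of this list, Cr2, is a member described above. It pointed the other way and did not pass with all libraries (-5.16, limma adjusted p = 0.0686).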

How the data were processed

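The 7 libraries of whole abdominal aorta were grouped by title (the titles have NP, the treatment protocol LNP). Per the labels' protocols, RNA was extracted with TRIzol and a Direct-zol kit, and 500 ng entered QuantSeq 3′ mRNA libraries. The submitters' processing notes name the genome build mm10. Which aligner, counter and annotation were used, and whether strand was, is not given in the sources used here. Deposited values were on a log10 scale. The power of 10 of each value, minus 1, summed to 1000000 per library, so they were read as log10(CPM + 1), and 100% were whole reads within 0.01. They were converted to log2(CPM + 1).

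Genes with a mean log2(CPM + 1) of at least 1 were tested with limma-trend (limma 3.58.1, R 4.3.3), with no covariate and Benjamini-Hochberg adjustment over all genes tested. Log2 fold changes are ITA-LNP over control-LNP; the pseudocount of 1 CPM understates changes of low genes. A second fit used each gene minus Cd79a. The 4 compositions were compared by exact two-sided permutation tests. The procedure was run on simulated counts, drawn for both groups from the control-LNP means with a single dispersion and known folds in some genes. That setting is simpler than these data and does not cover groups that differ in tissue content. The members and lists were chosen with earlier results of these data known. All 34 genes are named. Per-library values are given for the 2 most abundant of each role, for those not called, and for Pax5, Ighm, Ighd, Igkc, Jchain and Ebf1; of each further B cell list up to 3 genes by p are named. Some genes that this rule names are not reported here. Alternatives were other filters, pseudocounts, scalings, priors, sample weights, limma-voom on recovered reads, a replicate block and leaving out each library. Genes matched GENCODE M21 by symbol. Python 3.11.15, pandas 2.3.3, numpy 2.4.6, scipy 1.17.1 and matplotlib 3.10.9 were used.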

Additional observations from a re-analysis of the deposited data

Results flagged for a closer look

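Within the 4 control-LNP libraries, 38 sets of values were checked for a library far from the others (a gap to the nearest library above Dixon's 95% critical share of the whole range), and 13 had one. Chance gives about 1 in 20 such sets if they are independent, but these sets share the same 4 libraries and some share genes. The rate over all genes was not counted, so the 13 cannot be read as an excess for these genes. In 12 of the 13 the library was control-LNP replicate 2. It was far below the other 3 control-LNP libraries for Ms4a1 (1.64 CPM, others 562 to 595), Cd72 (11.2 CPM, others 93.6 to 122), Cr2 (0.449 CPM, others 139 to 185) and Btla (79.4 CPM, others 300 to 350). The same held for Tnfrsf13c (12.7 CPM, others 36.9 to 42.0), Igkc (46.3 CPM, others 295 to 358) and Jchain (0.598 CPM, others 18.8 to 23.4). Mzb1, Blnk and Btk each had 2 reads in it, or 0.299 CPM, against 27.6 to 46.7, 85.6 to 101 and 29.3 to 40.5 CPM in the others. It was far above the others for Fcrl1 (337 CPM, others 157 to 172). Its IgD share of 11.9% was below the 20.2% to 21.0% of the others. Control-LNP replicate 3 stood above the others for Fcrla (284 CPM, others 159 to 166).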

How the results depend on the processing

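Across the alternatives 20 to 33 of the 34 genes were lower and 0 higher, and 33 kept a negative fold change in all of them, all but Jchain. Of the 24 genes called lower, 20 kept the call in all alternatives, while Cd22, Tnfrsf13c, Ly86 and Igkc lost it in some. Leaving out each library in turn gave 21 to 32 lower genes, and the replicate block gave 20. Same-numbered libraries did not deviate together (correlations of their deviations 0.00528, -0.0105 and -0.0173), and the main fit used no pairing. With so few libraries per group, these correlations cannot exclude a shared batch. Jchain turned negative with median centring (-1.05), quantile normalization (-0.66), sample weights (-0.85) and median centring without control-LNP replicate 2, an alternative chosen after seeing the data (-1.11). Leaving out each library gave Jchain log2 fold changes from -0.87 to 1.16. The lambda share difference ran from -19.6 to 15.8 percentage points when libraries were left out and was 1.75 without control-LNP replicate 2. The count of genes that differ from Cd79a was 14, against 18 with a pseudocount of 4 CPM, 15 at an adjusted p under 0.1, 9 with a pseudocount of 0.25 CPM, 6 with limma-voom and 11 to 15 with a library left out; the cause was not tested. Over all genes, 651 lower calls became 1249 with median centring, 1401 with quantile normalization, 2243 with sample weights, 322 with the replicate block and 401 to 2065 with a library left out. The 1306 higher calls became 741, 1614, 2100, 738 and 984 to 1988. With 3 and 4 libraries the composition tests cannot reach an adjusted p under 0.05 unless at least 3 of the 4 reach the smallest p.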
